A study of Mus musculus with 8 samples.

Results

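The genes described here are the 9 that encode the N6-methyladenosine (m6A) writer complex and the separate methyltransferase Mettl16: Mettl3, Mettl14, Wtap, Virma, Zc3h13, Cbll1, Rbm15, Rbm15b and Mettl16. They were taken by name, and Virma is listed under its older name 1110037F02Rik. All 9 were found among the 16279 genes with input RNA values, and 1 of them was among the 1912 genes with a differential m6A peak. The study asked how EMG1, a methyltransferase of 18S ribosomal RNA, influences m6A in mRNA.

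The cells were N2a, a mouse neuroblastoma line grown in DMEM with fetal bovine serum. They were transfected with a small interfering RNA (siRNA) against Emg1 or with a control siRNA, by the same lipid reagent, and collected 48 h later. Poly(A) RNA was sequenced as input and after m6A immunoprecipitation (IP), which gave 4 groups of 2 libraries: knockdown input, control input, knockdown IP and control IP. Whether the 2 libraries in each group are separate cultures is not in the labels, and p-values measure their spread, which may be technical. No value per library was analysed here; each gene had a mean normalized count, a log2 fold change with a standard error (SE), all from the authors' own test.

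Emg1 had a log2 fold change of -1.73 ± 0.11 (SE) in the authors' deposited table, so the siRNA left 30.2% of the control level (95% interval 26.1 to 35.0). The table names no direction, and every fold change below is read as knockdown over control because Emg1 is negative. Sympathoadrenal markers fixed for this line were listed with mean normalized counts from 42.6 (Dbh) to 10441 (Hand2) in the authors' deposited table. Of 6 markers of other cell types 4 were listed, at means of 8.96 to 407 in the authors' deposited table; Ptprc and Epcam were not matched.

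Most m6A in mRNA is placed during transcription by a complex with a catalytic and a regulatory part. METTL3 carries the active site and uses S-adenosylmethionine as methyl donor, while its partner METTL14 holds the RNA. WTAP, VIRMA, ZC3H13 and CBLL1 (HAKAI) anchor this pair in the nucleus and steer it along the transcript, and RBM15 and RBM15B bind RNA and bring the complex to its targets. METTL16 works outside the complex and methylates the U6 small nuclear RNA and hairpins in the Mat2a transcript.

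The promoters of Zc3h13, Rbm15b and Mettl16, which rose, are shown beside that of Wtap, whose RNA did not. RefSeq promoter sequences (GRCm38.p6) matched 7 of the 9 genes, with 10 start sites in all; Mettl14 and Virma were not matched. The 120 bases directly before the most upstream listed start are printed 5′ to 3′ on the gene's strand, with capitals for matches to any of 7 short motifs. Zc3h13 lies at chr14:75284246-75284365 (plus strand), Rbm15b at chr9:106887076-106887195 (minus), Mettl16 at chr11:74770743-74770862 (plus) and Wtap at chr17:12992544-12992663 (minus).
Zc3h13: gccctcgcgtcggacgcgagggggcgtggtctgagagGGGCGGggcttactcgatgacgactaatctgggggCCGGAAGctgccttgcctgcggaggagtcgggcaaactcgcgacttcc
Rbm15b: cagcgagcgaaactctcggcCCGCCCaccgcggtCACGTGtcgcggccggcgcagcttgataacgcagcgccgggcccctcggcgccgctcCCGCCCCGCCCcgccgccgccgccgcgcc
Mettl16: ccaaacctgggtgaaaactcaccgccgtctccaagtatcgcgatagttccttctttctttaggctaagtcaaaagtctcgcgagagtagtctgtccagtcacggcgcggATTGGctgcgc
Wtap: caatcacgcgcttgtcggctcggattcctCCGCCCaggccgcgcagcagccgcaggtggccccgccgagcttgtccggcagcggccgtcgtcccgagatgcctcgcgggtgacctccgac

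The capitals mark a GC box and an ETS motif in Zc3h13, an E-box and GC boxes in Rbm15b, a reversed CCAAT box in Mettl16 and a GC box in Wtap. Of the windows not printed, the 120 bases of Cbll1 and Mettl3 held no match, and those of Rbm15 held CCAAT boxes. The motifs were searched on both strands over 250 bases before and 50 after each start. Matches may overlap, as 2 GC boxes of Rbm15b do by 1 base. The GC box, spelled GGGCGG, was found in 5 of the 7 genes (Cbll1, Rbm15, Rbm15b, Wtap and Zc3h13). It lay in 8 of the 10 member windows and in 35.7% of all 32851 promoter windows. The ETS letters CCGGAAG were held by Cbll1, Mettl3 and Zc3h13, in 4 member windows, and by 8.86% of all windows. CCAAT was held by Mettl16, Rbm15 and Wtap, also in 4 member windows, and by 37.4% of all windows. The E-box CACGTG was found in 1 member window, of Rbm15b (7.15% of all windows). The YY1 letters AAGATGG were found in 2, of Mettl16 and Rbm15b (6.34%). No member window held part of the NRF1 site (GCGCATG) or the cyclic AMP response element (TGACGTC), found in 3.91% and 3.21% of all windows. The members' windows were rich in CpG, with 17 to 48 of these dinucleotides against a median of 7 over all windows, and the highest count was at a second Wtap start. The shares of windows with each motif were not counted over windows of like CpG content. A match describes letters only, and none of the 7 motifs was shared by all of the windows of the 5 rising genes searched (Cbll1, Mettl16, Rbm15, Rbm15b and Zc3h13).

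In input RNA, 6 of the 9 genes rose after Emg1 knockdown and 0 fell, at an adjusted p under 0.05 in the DESeq2 test of the authors' deposited table. They were Zc3h13, Cbll1, Mettl16, Rbm15b, Mettl14 and Rbm15, with log2 fold changes of 0.30 to 0.52, that is 123% to 143% of control. Over all 12807 genes with an adjusted p, the share called higher was 17.1% and the share called lower 15.5%, together 32.6%. Among the 4977 genes whose mean count lay within the range of the 9 members (719 to 2948), 21.4% were called higher. The median log2 fold change was 0.32 over the 9 members, 0.00 over all tested genes (25th to 75th percentile -0.22 to 0.20) and 0.02 over genes of that range of means. At adjusted p thresholds of 0.01 and 0.1, 5 and 7 members were higher, against 12.3% and 20.2% of all tested genes. At an unadjusted p under 0.05, 8 members were higher and 0 lower in the same DESeq2 test. The share of all tested genes higher at that unadjusted p was not counted, but it is at least 20.98%. That share had a higher Wald statistic than Virma, whose unadjusted DESeq2 p was 0.0463. Counts are normalized within bulk RNA, so a change in cell make-up and a change in RNA per cell cannot be told apart.

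**Figure D1:**
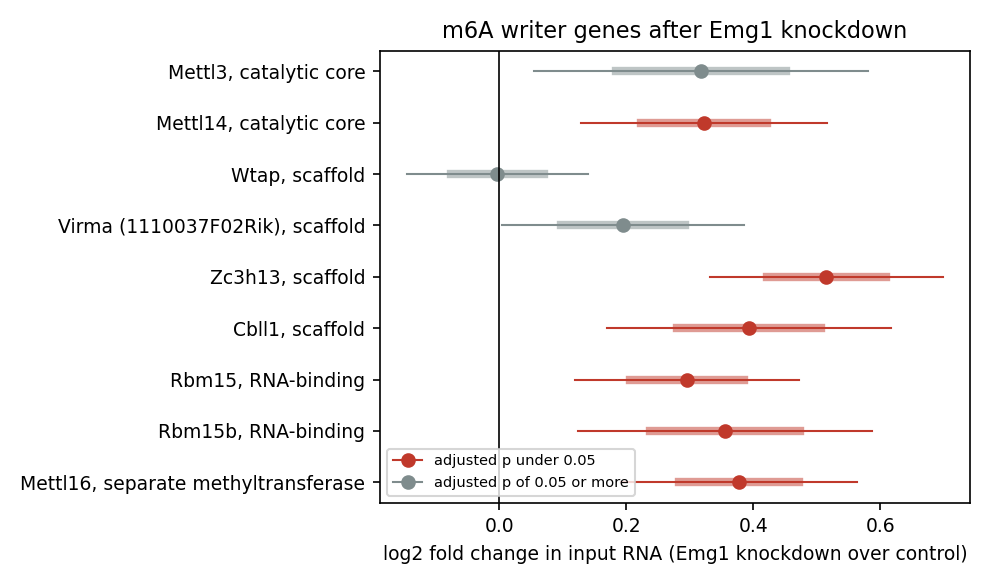
Log2 fold change in input RNA (Emg1 knockdown over control) for the 9 genes, ordered by role; points are the authors' values, thick bars 1 SE and thin lines the 95% interval computed from it. All points except Wtap, at 0.00, lie between 0.19 and 0.52, and the 6 red ones had an adjusted p under 0.05.

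The catalytic pair had nearly the same fold change. Mettl14 (chromosome 3, 123368295 to 123385990, GRCm38.p6 span) rose by 0.32 ± 0.10 (log2, SE) in the authors' deposited table, at a DESeq2 adjusted p of 0.00537 and a 95% interval of 109% to 143% of control. Mettl3 (chromosome 14, 52294841 to 52308741), the catalytic subunit, stood in the authors' deposited table at 0.32 ± 0.13, where it had a DESeq2 adjusted p of 0.0535 and an interval of 104% to 150% of control. The difference between the pair was 0.00 (95% interval -0.33 to 0.32). What differed was the error: the mean normalized count was 719 for Mettl3 and 1674 for Mettl14 in the authors' deposited table. At its SE, Mettl3 would have needed a log2 fold change of 0.322 to be called, against a measured 0.318. One passed and the other missed the threshold, and a difference between them was not detectable at this depth.

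The regulatory part of the complex held both the largest and the smallest change of the 9. Zc3h13 (chromosome 14, 75284306 to 75344433), a zinc finger protein that keeps the complex in the nucleus, had the largest rise of the 9, 0.52 ± 0.09 (log2, SE) in the authors' deposited table (DESeq2 adjusted p = 5.82e-07). It reached 143% of control (interval 126 to 162), and 3.31% of tested genes had a higher Wald statistic. Cbll1 (chromosome 12, 31484829 to 31500676), the E3 ligase-like subunit HAKAI, rose by 0.39 ± 0.11 in the authors' deposited table (DESeq2 adjusted p = 0.00304), to 131% of control (interval 112 to 153).

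Virma (1110037F02Rik, chromosome 4, 11485958 to 11551143), the large scaffold of the regulatory part, stood at 0.19 ± 0.10 in the authors' deposited table and did not pass (DESeq2 adjusted p = 0.115). Its interval ran from 100.2% to 130.6% of control. That range holds the values of Mettl14, Rbm15, Rbm15b and Mettl16 but neither that of Cbll1 (131.3%) nor that of Zc3h13. The difference of Virma from Cbll1 was within error, at -0.20 (log2, 95% interval -0.49 to 0.10). Wtap (chromosome 17, 12966799 to 12992543), which binds the catalytic pair, stood at 0.00 ± 0.07 in the authors' deposited table (DESeq2 adjusted p = 0.979). The interval of Wtap, 90.4% to 110% of control, was the narrowest of the 9 on the log2 scale and left out the values of all 6 rising members.

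Both RNA-binding adaptors rose. Rbm15 (chromosome 3, 107305511 to 107334460) rose by 0.30 ± 0.09 (log2, SE) in the authors' deposited table (DESeq2 adjusted p = 0.00521). Its paralog Rbm15b (chromosome 9, 106880928 to 106887075) rose by 0.36 ± 0.12 in the authors' deposited table (DESeq2 adjusted p = 0.0114). They reached 123% (interval 109 to 139) and 128% of control (interval 109 to 150), and their difference was -0.06 (95% interval -0.35 to 0.23).

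Mettl16 (chromosome 11, 74770815 to 74826855), the enzyme outside the complex, rose by 0.38 ± 0.10 in the authors' deposited table (DESeq2 adjusted p = 0.000521), to 130% of control (interval 114 to 148). Its change lay between those of Cbll1 and Rbm15b. Mat2a, the S-adenosylmethionine synthetase gene whose transcript METTL16 methylates, stood at 0.11 ± 0.05 in the authors' deposited table and did not pass (DESeq2 adjusted p = 0.0783).

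From high to low, the changes ran Zc3h13, Cbll1, Mettl16, Rbm15b, Mettl14, Mettl3, Rbm15, Virma and Wtap. No neighbours in that order differed beyond their errors. Of the 36 pairs, 8 had a 95% interval of the difference that left out 0. Wtap was in 7 of these, with each member but Virma, and the remaining pair was Virma and Zc3h13 (-0.32, interval -0.59 to -0.06). The largest difference, between Zc3h13 and Wtap, was 0.52 (0.29 to 0.75). These intervals combine the SEs of both genes as if independent, although all genes share the same libraries, and they were not adjusted for the number of pairs.

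The SEs of the members were those usual at their depth. Mettl3, with the lowest mean, had an SE of 0.134 in the authors' deposited table, and the 200 genes nearest to it in mean had a median SE of 0.130. For Wtap, with the highest mean, the values were 0.073 in the authors' deposited table and 0.075 in its 200 neighbours. Among the changes called in either direction over all genes, that of Zc3h13 was larger in size than 72.8% and that of Cbll1 than 52.6%. Mettl16, Rbm15b, Mettl14 and Rbm15 were larger than 49.3%, 44.2%, 36.8% and 29.6% of them.

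**Figure D2:**
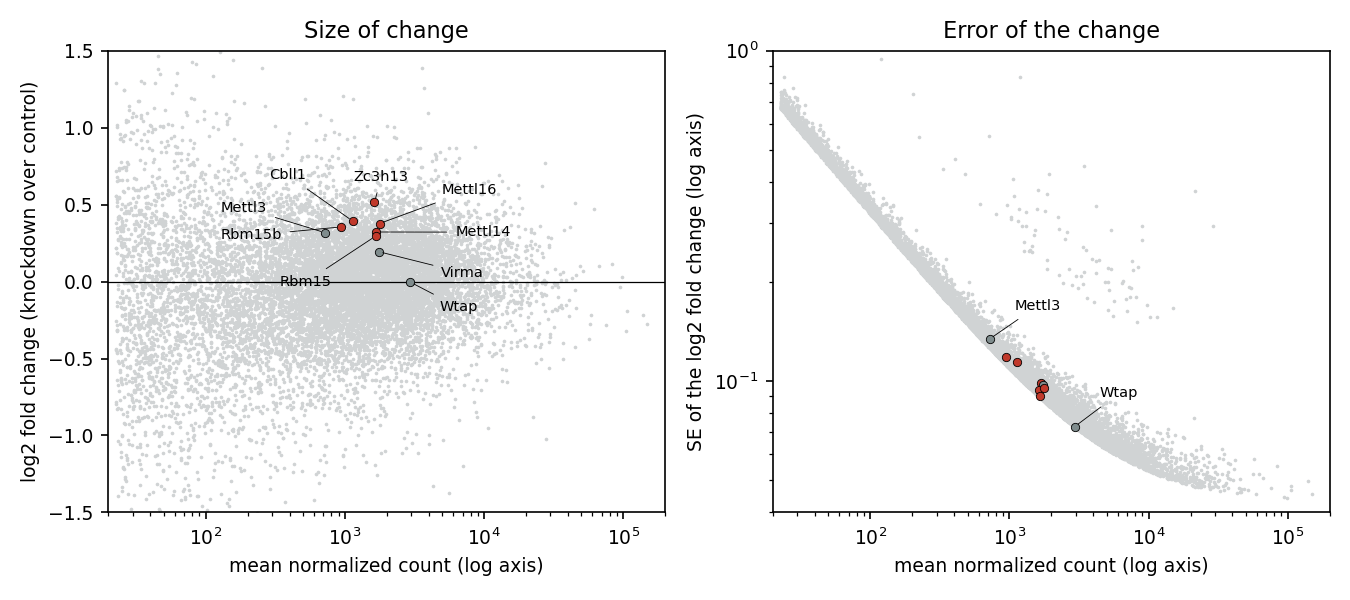
Log2 fold change (left) and its SE (right, log axis) against the mean normalized count (log axis) for genes with an adjusted p in grey and the 9 members as large points, red where called higher and grey where not; some grey points fall outside the drawn ranges. The members lie at means of 719 to 2948, and their SEs, from 0.07 to 0.13, follow the band of all genes.

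Neighbouring genes could share reads with some members, and no source used here says whether the authors counted by strand. The RefSeq span of Mettl3 overlaps that of Tox4 by 669 bases, and Tox4 had a log2 fold change of 0.15 ± 0.09 in the authors' deposited table. Rbm15 overlaps Slc16a4 by 6605 bases and Rbm15b overlaps Dcaf1 by 65 bases. Slc16a4 and Dcaf1 stood at 0.07 ± 0.42 and 0.05 ± 0.09 in the authors' deposited table, and none of these 3 neighbours passed. The part of shared reads in the members' values was not tested.

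Wtap was the member with a differential m6A peak, and it was the member whose RNA level was flattest. A peak on 1 of 9 genes compares with 14.8% of all tested genes and 19.0% of genes in the members' range of means, so the count itself is no more than the background. The peak (chromosome 17, 12975271 to 12980827, minus strand, mm10) had a change of -1.04 (log2) and a false discovery rate of 0.000123 in the authors' deposited table. The sign is as deposited, and no source used here says which condition is the numerator; it is not read as gain or loss after knockdown. Of the 1123 peaks with a negative change, 72.1% had a smaller one.

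The Wtap peak had an uncommon form and weak support for the peak itself. It consists of 204 bases at 12975271 to 12975474 and 6 bases at 12980822 to 12980827, separated by 5347 bases and joined as if across a splice junction. Of 512 differential peaks with 2 blocks, 35 had a smaller block of at most 6 bases. The larger block is centred at 66.7% of the RefSeq span, counted from the gene's start with introns included, and no differential peak lay closer to the end of the gene.

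Fold enrichment of IP over input was 13.3 for this peak in the authors' deposited table, higher than in 74.4% of all differential peaks. The log10 p of the same peak was -4.75 in the authors' deposited table, against a median of -262 over the list. Only 42 of the 2114 peaks had weaker support by that p. Of the 707 peaks with a fold enrichment of at least 10, the one on Wtap had the weakest p; the median of those peaks was -1050. The numbers of reads behind the peak were not analysed here, so how many reads carry the enrichment of 13.3 is unknown.

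**Figure D3:**
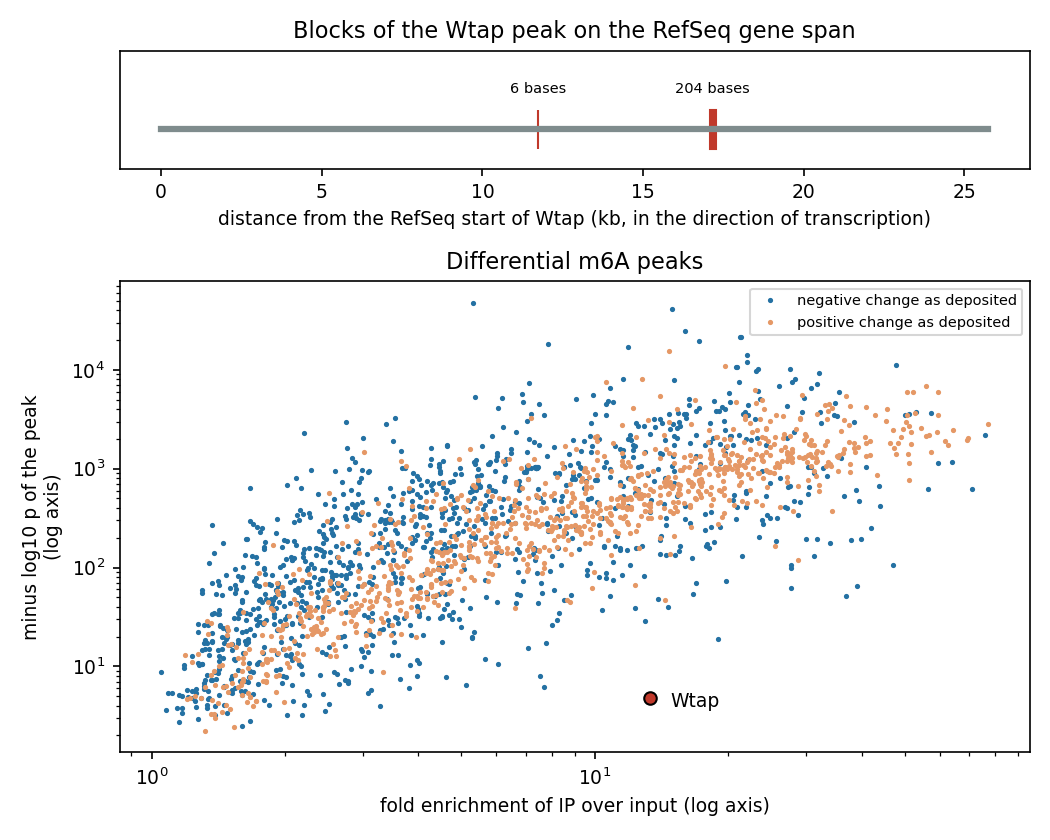
Top, the 2 blocks of the Wtap peak (red, the 6-base block drawn at the width of its outline) on the RefSeq gene span by distance from the gene's start in kb; bottom, fold enrichment of IP over input against minus log10 p of the peak (both log axes) for 2112 differential peaks, coloured by the sign of change, without 2 peaks whose p is listed as 0. Wtap, at an enrichment of 13.3 and a minus log10 p of 4.75, lies apart below the band of other peaks of like enrichment.

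No other member carried a differential peak, whether peaks were assigned by the name in the list or by overlap with the RefSeq spans. The list holds differential peaks, so m6A on the other 8 transcripts may be present and unchanged or undetected.

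The other genes of the m6A pathway were given by lists. At an adjusted p under 0.05 in DESeq2, 32.6% of all tested genes passed in either direction. None of 5 genes for other RNA N6-adenosine methyltransferases and their partner passed that threshold (median log2 fold change -0.01). These 5 genes did not pass at an unadjusted p under 0.05 either. They were Mettl5, which modifies 18S ribosomal RNA, with 0.23 ± 0.15 in the authors' deposited table, then Trmt112, which partners it, Zcchc4, Pcif1 and Mettl4. The demethylase genes Fto and Alkbh5 did not pass after adjustment, beside the same 32.6%, with values of -0.05 and -0.04 in the authors' deposited table. At an unadjusted p under 0.05 in DESeq2, 0 of the 2 passed. For both lists, the share of all tested genes at that unadjusted p was not counted, but in either direction it is at least the 32.6% above. Counts over lists this short are given as descriptions.

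Of 13 measured m6A reader genes, 7 rose and 1 fell (median 0.23), against 17.1% and 15.5% over all tested genes. The 4 with the smallest adjusted p all rose, namely Prrc2a by 0.65 ± 0.05, Fmr1 by 0.94 ± 0.10, Ythdf2 by 0.48 ± 0.08 and Ythdf1 by 0.34 ± 0.07 (log2, SE) in the authors' deposited table. The reader that fell was Hnrnpc, by 0.17 ± 0.05 (DESeq2 adjusted p = 0.00718). The writers and readers thus both held more rising than falling genes, while 3 writers and 5 readers did not pass. The lists differed in sign: 8 of 9 writers but 7 of 13 readers had a positive fold change. The 5 readers that did not pass (Ythdf3, Ythdc2, Igf2bp3, Fxr1 and Fxr2) all had negative values.

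**Figure D4:**
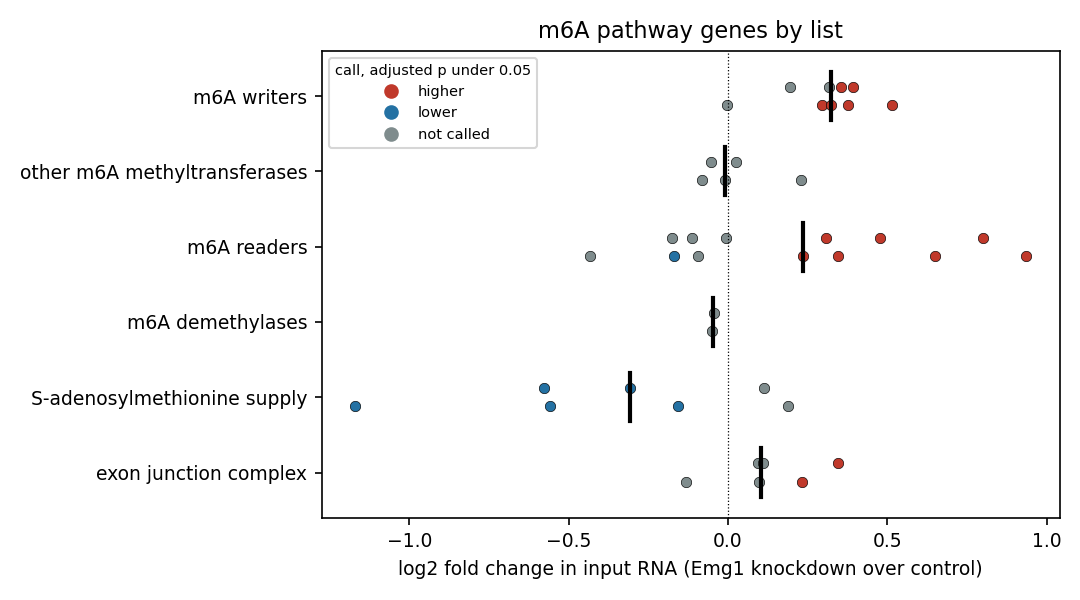
Log2 fold change in input RNA (Emg1 knockdown over control) of each measured gene in 6 lists of the m6A pathway; each point is a gene, coloured by its call at an adjusted p under 0.05 and shifted up or down for legibility, and black lines are medians. The medians are 0.32 for writers, 0.23 for readers and -0.31 for S-adenosylmethionine supply.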

How the data were processed

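Input RNA and m6A IP libraries of N2a cells (4 groups of 2) were made with a stranded kit and read as 75-base single ends, per the labels. Trimmomatic, HISAT2 and DESeq2 with the mm10 build are named in the submitters' processing notes; no source used here gives versions, read counter, annotation or peak caller. Per the file headers, the mean normalized count is a signal, the log2 fold change and its SE are log2 values, the Wald statistic is a score, and the p-value and adjusted p are those of the authors' DESeq2 test. In the list of 2114 peaks, fold enrichment is a ratio and the change a log2 value deposited by the authors; log10 p and false discovery rate are scores deposited with them. Library depth is unknown.

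Recomputing p and Benjamini-Hochberg values from the Wald statistics gave the deposited ones. Genes were called at an adjusted p under 0.05; 3472 genes with means up to 22.7 had none. The 95% intervals were computed here from the SE and the normal distribution. The centring and adjustment steps were tested on simulated fold changes. Fewer genes were changed in that simulation than were called here, so it cannot show how centring behaves under changes this widespread. All 9 members, Emg1 and, per further list, up to 4 genes with the smallest adjusted p or a peak were named; other named list members were chosen after their values were seen. Members, lists, motifs and markers were chosen with earlier results of these data known. Genes alike in pattern could not be sought without values per library. Software was Python 3.11.15 with pandas 2.3.3, numpy 2.4.6, matplotlib 3.10.9 and scipy 1.17.1.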

Additional observations from a re-analysis of the deposited data

How the results depend on the processing

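The number of rising members was 5 at an adjusted p under 0.01 (without Rbm15b; 12.3% of all tested genes rose), 7 at 0.1 (with Mettl3; 20.2% of all tested genes), and 6 with adjustment over all 16279 genes, with a minimum log2 change of 0.26, and after subtracting the median fold change of genes whose mean reached 100 (0.01) or of genes in the members' range of means (0.02, chosen after seeing the data). Without Mettl16 it was 5 of 8. No member fell under any of these alternatives in the DESeq2 statistics. Wtap kept its 1 peak at a false discovery rate of at most 0.01, at a fold enrichment of at least 2 and by overlap. The other lists were recounted at an adjusted p under 0.01 and with adjustment over all genes, and under these alternatives no count of theirs moved by more than 1.5 times. No paired analysis was possible because the files carry no values per library; leaving out replicates was not run for the same reason. Depth limits Mettl3 most, whose mean count is lowest.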

Other observations

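A list of genes around S-adenosylmethionine, the methyl donor of the writers, held enzymes that make it, clear its product or regenerate methionine. It also held Ahcyl1 and Ahcyl2, which are relatives of Ahcy. Of 7 measured genes, 5 fell and 0 rose in the authors' DESeq2 test at an adjusted p under 0.05 (median log2 fold change -0.31). Over all tested genes, 15.5% were called lower at that threshold. At an unadjusted p under 0.05 in DESeq2, 5 of the 7 were lower and 2 higher. The shares of all tested genes at that unadjusted p were not counted, but they are at least 15.5% for lower and 20.98% for higher. Ahcyl2 fell by 1.17 ± 0.10 (log2, SE) in the authors' deposited table, and Ahcy, which clears the product S-adenosylhomocysteine, fell by 0.56 ± 0.08. Methionine synthase (Mtr) fell by 0.58 ± 0.12 and Mat2b, the regulatory subunit of the synthetase, by 0.31 ± 0.07 in the authors' deposited table. Ahcyl1 was the fifth to fall, by 0.16 ± 0.05. It and Ahcyl2 do not make the donor and are not taken here to clear its product. Mat2a, which makes it, and Mtrr, which reactivates methionine synthase, stood at 0.11 ± 0.05 and 0.19 ± 0.09 in the authors' deposited table and did not pass (DESeq2 adjusted p = 0.0783 and 0.0912). Mat1a was not matched, and the list was not tested against the writers.

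Of 6 exon junction complex genes, whose proteins keep m6A away from splice junctions, Casc3 rose by 0.35 ± 0.07 and Rnps1 by 0.23 ± 0.06 in the authors' deposited table; 0 fell, also at an unadjusted p under 0.05 in DESeq2. At an adjusted p under 0.05 in DESeq2, 17.1% of all tested genes were called higher and 15.5% lower. The share of all tested genes lower at the unadjusted p was not counted, but it is at least that 15.5%. Over all tested genes, 14.8% carried a differential peak, and whether the lists named here held more was not tested. Such peaks lay on Rbm8a, with a change of -0.84 (log2, as deposited), and on Casc3, with -1.23 and a fold enrichment of 1.17 in the authors' deposited table. Zcchc4, a methyltransferase of the large ribosomal RNA, carried a positive-change peak of 1.56 in the authors' deposited table. Its sign was opposite to that of Wtap. Of the readers, Prrc2a carried a peak of -0.41 at a fold enrichment of 11.9 and Hnrnpa2b1 one of -0.53 at 1.35. The demethylase gene Alkbh5 had one of -0.95 at 1.36, all in the authors' deposited table. The log10 p of the peak was weak for Casc3 (-3.38) and Alkbh5 (-7.24). For Zcchc4, Hnrnpa2b1, Rbm8a and Prrc2a it ran from -47.9 to -1990 in the authors' deposited table.

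The reader Ythdf3 had an SE of 0.21 in the authors' deposited table, where the 200 genes nearest in mean had a median of 0.073. Its log2 fold change was -0.43 and did not pass (DESeq2 adjusted p = 0.0954), while its paralogs Ythdf1 and Ythdf2 rose. Which library sets this error could not be seen from the values used here.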
